A study of Ambystoma mexicanum with 7 samples.

Results

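The peaks described here are the accessible regions of dividing limb cells of the axolotl, Ambystoma mexicanum, in systemically activated limb and in blastema. They were chosen as the whole of both authors' peak lists, with no filter: 17326 peaks of systemically activated limb and 168368 peaks of blastema, 185694 of the 702981 intervals in the 4 lists of the series. ATAC-seq, in which the Tn5 transposase inserts adapters where DNA is open, was run on 10000 sorted cells with a 4C DNA content per sample. The activated group held 2 samples of limb tissue, sorted 14 days after amputation per the series design. The blastema group held 2 samples of blastema together with wound epidermis, for which the labels give no day. All 4 samples were wild type, and 3 intact limb samples, also given as 14 days, serve below only as a point of reference. The labels do not say which limb was amputated, how many animals gave a sample or whether animals were shared within a group.

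An accessible peak usually marks a promoter, an enhancer or another element where proteins have displaced or loosened nucleosomes. The blastema is the mound of progenitor cells that forms under the wound epidermis and rebuilds the limb. In systemic activation, cells of uncut limbs start to divide in response to an amputation at another place. The comparison asks how far the open sites of such uncut limbs are the open sites of the regenerating tissue, and whether they are open at the same points and over the same lengths.

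Each group has 1 list, so no difference between the lists can be set against a spread between replicates, and no test between the conditions is given. Percentages carry exact (Clopper-Pearson) 95% intervals, and medians carry exact binomial 95% intervals over sites, both of which cover counting error only. The lists differ in depth. The lowest background at a summit was 0.375 fragments per base in the activated list and 2.49 in the blastema list, 6.65 times as high. Pileup, the number of fragments stacked at a summit, had a median of 14 in activated and 21 in blastema peaks. Fragment here means a counted unit of pileup. The lists do not say whether reads or sequenced fragments were counted. The part of depth in the results below was not tested. Blastema samples also held wound epidermis, which the limb samples are not labelled as holding, so a site open in more cells and a site more open in each cell cannot be told apart. Gene names, promoters and sequences are not given, because no genome of the files' build was used here.

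Most activated peaks overlapped a blastema peak, and most of those lay inside it. A blastema peak overlapped 93.9% of activated peaks by at least 1 base (16264 of 17326). The share was 66.9% with the blastema list cut to its strongest peaks at the length of the activated list, and 30.7% where the overlap had to cover 50% of each peak. Of these 16264 activated peaks, 14556 lay wholly inside a single blastema peak, which is 89.5% (89.02 to 89.97). The summit, the base of highest pileup, fell inside the blastema interval for 98.4% (98.1 to 98.5). The reverse nesting was rare, with 56 blastema peaks wholly inside an activated peak. Activated peaks not wholly inside were mostly offset: among sites with 1 peak in each list, 1619 activated peaks reached past the blastema peak, by a median of 43 bases (quartiles 17 and 100.5). At 1566 of these sites each peak reached past the other. Among all 14746 sites with 1 peak in each list, the activated peak was the wider at 259.

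The wider an activated peak was, the more often it had a blastema counterpart. Of the 5218 activated peaks of 200 to 249 bases, 85.5% (84.5 to 86.5) were overlapped, below the 93.9% over all activated peaks. The share was 97.2% (96.6 to 97.7) at 300 to 399 bases. All 475 activated peaks of 800 bases or more were overlapped. Pileup gave the same order. Of activated peaks with 5 to 9 fragments at the summit 72.7% (71.0 to 74.5) were overlapped, against 94.9% at 10 to 14 fragments and 99.9% at 20 to 29 fragments. At 30 fragments or more every activated peak was overlapped, among them 319 of 30 to 39 fragments and 48 of 100 or more.

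Seen from the blastema side, an activated limb peak was found in a small part of the sites, and mainly in the broad ones. Activated peaks overlapped 9.23% of blastema peaks (15533 of 168368). The share was 63.1% with the blastema list cut to the length of the activated list. It was 3.16% where the overlap had to cover 50% of each peak. Among blastema peaks of 200 to 299 bases the share was 0.621% (0.566 to 0.681), and among those of 600 to 799 bases it was 21.2% (20.5 to 21.9). It was 59.5% (58.4 to 60.6) at 1000 to 1499 bases. Of the 1479 blastema peaks of 1500 bases or more, 78.9% (76.7 to 81.0) were overlapped. The narrow classes are the large ones, with 73217 blastema peaks of 200 to 299 bases and 31776 of 300 to 399 bases, where the share was 1.94% (1.79 to 2.10).

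**Figure D1:**
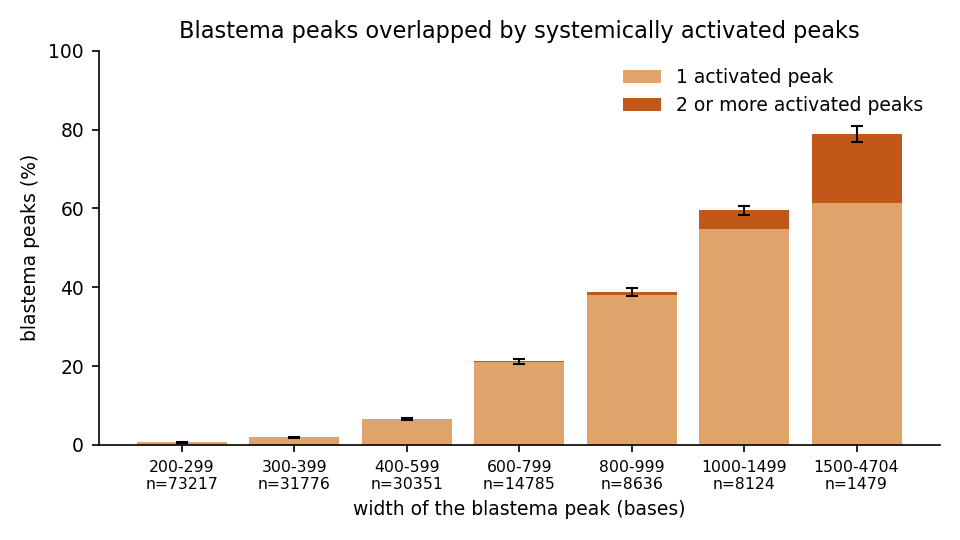
Share of blastema peaks, in percent, overlapped by 1 or by 2 or more systemically activated peaks, by width of the blastema peak in bases; n is the number of blastema peaks and error bars are exact 95% intervals of the whole bar. The bar rises from 0.621% in the narrowest class to 78.9% in the widest, and the part with 2 or more activated peaks is visible only from 800 bases upward.

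Some broad blastema peaks had no activated overlap, the 5 widest on named arms between 2445 and 2635 bases. The first lay on arm 5q segment 2 from 311439372 to 311442006 and had a summit pileup of 81. It had no intact overlap, and an activated peak stood 5606 bases away. The second, 454017807 to 454020297 on 6p segment 2, had a pileup of 62, and the third, 115570327 to 115572816 on 8p segment 1, a pileup of 53. They were followed by 333191484 to 333193937 on 10p segment 2 and 314439448 to 314441892 on 3p segment 1, with pileups of 69 and 57. An intact peak overlapped each of these 4, and the nearest activated peak was between 139946 and 443416 bases away.

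Most blastema peaks with an activated overlap held a single activated peak, and a minority held several. The number was 1 in 14794 blastema peaks, 2 in 723, 3 in 14 and 4 in 2, so 739 or 4.76% of the overlapped blastema peaks held 2 or more. That share was 2.05% among peaks with a −log10 q of at least 5 in both lists, and 3.05% after peaks at most 150 bases apart were merged. Where the overlap had to cover 50% of each peak it was 0 by construction. Under that rule, 2 separate activated peaks cannot both match 1 blastema peak. Counting only activated peaks wholly inside, 659 blastema peaks held 2 and 15 held 3 or more. Counting by summits, the numbers were 711 and 16. The blastema peak was broader where it held more: the median width was 309 bases with no activated peak, 874 with 1, 1336 with 2 and 1713 with 3 or more. Blastema pileup had medians of 20, 55, 66 and 75 in the same order. Within the overlapped blastema peaks, the share holding 2 or more was 0.734% at 600 to 799 bases, 7.78% at 1000 to 1499 bases and 22.4% at 1500 bases or more. Activated peaks were at least 200 bases wide and at least 90 bases apart, so several of them fit wholly only inside a longer blastema peak. Counted by overlap, the narrowest blastema peak with 2 activated peaks was 264 bases wide. How far the least width and gap of activated peaks alone give the link of number and width was not tested.

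Both blastema peaks with 4 activated peaks were broad, but they differed in strength. The one on 6q segment 0 from 179023014 to 179026007 spanned 2994 bases with a pileup of 238. Its activated peaks had pileups of 64, 35, 89 and 56 from low to high position. The blastema summit lay 19 bases from the summit of the strongest of them, with 89 fragments, and 410 to 1319 bases from the others. The other, on 1p segment 0 from 50356838 to 50359374, spanned 2537 bases with a pileup of 78. Its 4 activated peaks were nearly level, with pileups of 19, 21, 21 and 20, and the blastema summit lay 29 bases from the summit of the second. The next in order held 3 activated peaks each. They spanned 442836051 to 442837832 on 2q segment 0, 349513188 to 349514843 on 3q segment 2 and 150312558 to 150314143 on 1p segment 0. In the first of these 3 the blastema summit lay 22 bases from the strongest activated summit. In the second it lay 362 bases from the strongest and 37 bases from another, and in the third 243 bases from the strongest, which was also the nearest.

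In the 723 blastema peaks with exactly 2 activated peaks, the blastema summit usually sat on one of the pair, more often the stronger. It fell inside an activated peak in 634 cases, or 87.7%, in the gap between them in 58 and beyond both in 31. It fell in the activated peak of higher −log10 q in 437 cases, and in that of lower −log10 q in 184. Of the 708 pairs with unequal −log10 q, the stronger summit was the nearer one in 68.8% (65.2 to 72.2). That share was 58.9% (53.2 to 64.3) where the pair differed by less than 2 in −log10 q, and 76.8% (72.3 to 80.9) where it differed by 2 or more. The activated summits of a pair stood a median of 528 bases apart (513 to 544, quartiles 421 and 671.5), and the gap between the peaks had a median of 180 bases. The smallest gap between neighbouring peaks anywhere in the activated list was 90 bases and in the blastema list 100 bases, so closer neighbours are not listed as separate peaks.

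Blastema peaks that held several activated peaks also held several intact limb peaks more often than the rest. Of the 739 with 2 or more activated peaks, 212 held 2 or more intact peaks, or 28.7% (25.4 to 32.1), against 661 of the 14794 with 1 activated peak, or 4.47% (4.14 to 4.81). Width moved with this, so the shares were also taken within width classes. At 1000 to 1499 bases they were 20.7% (16.8 to 25.2) and 7.60% (6.84 to 8.42). At 1500 bases or more they were 46.7% (40.6 to 53.0) and 20.8% (18.2 to 23.5). Width and pileup can still differ within a class, and the difference between the shares was not tested.

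The reverse case, 1 activated peak across several blastema peaks, was seen 26 times, each with 2 blastema peaks. The activated peaks concerned had a median width of 374.5 bases. The 5 of highest fold on named arms spanned 237416477 to 237417275 on 3q segment 3, 95522842 to 95523628 on 8p segment 0, 460133924 to 460134495 on 13q, 147446197 to 147446857 on 2q segment 2 and 110067787 to 110067990 on 5q segment 2. An intact peak overlapped each of these 5, against 75.9% of all activated peaks. They were picked by fold and the share over all 26 is not given, so nothing is concluded from this.

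At 14746 sites, 1 activated peak met 1 blastema peak and neither met another. At these one-to-one sites the blastema peak was the wider in 98.1% (97.9 to 98.3). Over all peaks, the median width was 329 bases in the activated list and 329 in the blastema list. The width difference thus describes shared sites and not the lists as wholes. Median width was 347 bases in the activated list (343 to 350) and 876 in the blastema list (868 to 883). The median ratio of blastema to activated width was 2.30 (2.28 to 2.32), with quartiles of 1.71 and 3.18. The blastema peak reached past the activated peak by a median of 213 bases below its start and 214 bases beyond its end, so the extra length had no preferred side over all sites. At single sites it was uneven: the shorter reach had a median of 128 bases and the longer of 334 bases. Width across sites was moderately shared between the lists, with a Spearman rho of 0.46 over 14746 sites, a description in which all points come from the same pair of lists.

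Over deciles of activated −log10 q, the median extra length stayed within a narrow range, while the median ratio fell. From the lowest to the highest decile of activated −log10 q, the median activated width rose from 245 to 518 bases and the median blastema width from 712 to 1006.5. The width ratio fell from 2.71 (2.62 to 2.79) to 1.79 (1.74 to 1.82). Activated width is the denominator of this ratio and rose with the deciles, so a near-constant extra length alone lowers it. The median width difference was between 419 and 508 bases in all 10 deciles, lowest in the highest decile. Deciles do not resolve the strongest sites. At the 111 one-to-one sites with an activated pileup of 50 or more, a limit set after the values were seen, the median ratio was 1.20 (1.17 to 1.25). The median reach on either side was between 184 and 234 bases. The share of activated peaks wholly inside the blastema peak rose from 79.7% to 95.3% over the same deciles, with its highest value, 95.7%, in the ninth.

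**Figure D2:**
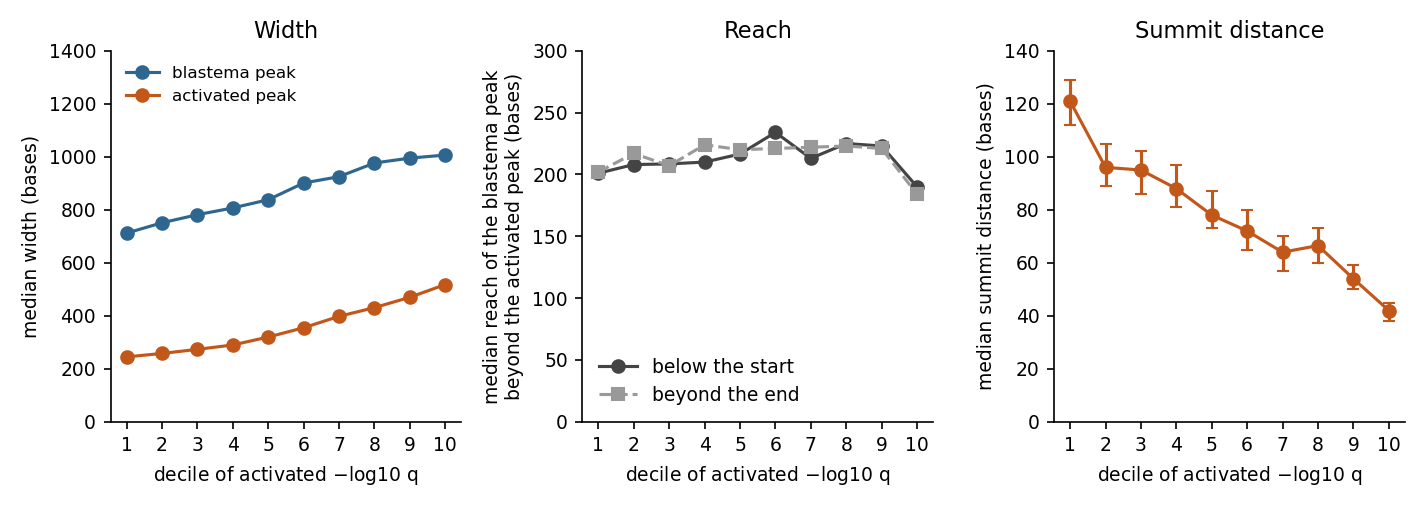
Median peak width, median reach of the blastema peak past each end of the activated peak, and median summit distance, all in bases, at one-to-one sites by decile of activated −log10 q (decile 1 weakest); error bars, drawn in the distance plot only, are exact 95% intervals of the median. Both widths rise together, the reach stays between 184 and 234 bases, and the summit distance falls from 121 to 42 bases.

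Depth moved with width, and the intact list gives a reference that is closer to the activated list in depth, with a lowest background of 0.529 fragments per base. At 11047 sites with exactly 1 peak in each of the 3 lists, median width was 383 bases in activated limb (379 to 387), 494 in intact limb (489 to 500) and 917 in blastema (911 to 925). The order of the widths was the order of the backgrounds. The lists also differ in tissue and in number of samples, so these cannot be told apart, and the part of depth was not tested. The median width ratio was 1.21 for intact over activated peaks and 1.88 for blastema over intact peaks at the one-to-one sites of those list pairs.

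The point of highest pileup lay within 100 bases in the 2 lists at most one-to-one sites, though overlap itself limits the distance. The distance between the activated and the blastema summit at one-to-one sites had a median of 75 bases (73 to 77), with quartiles of 27 and 168 bases. The summits were on the same base at 143 sites. They lay at most 50 bases apart at 39.1% of sites (38.3 to 39.9), at most 100 bases apart at 58.7%, and more than 500 bases apart at 314 sites. The blastema summit fell inside the narrower activated peak at 82.4% (81.8 to 83.0). Both summits favoured the middle of the blastema interval. With the interval cut into 3 equal parts, the middle part held 61.3% of the activated summits inside it and 63.1% of blastema summits. The activated summit stood at the lower position at 50.6% of sites and at the higher at 48.4%.

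Stronger sites had closer summits. The median distance fell from 121 bases (112 to 129) in the lowest decile of activated −log10 q to 42 bases (38 to 45) in the highest. The share within 50 bases rose from 25.1% (22.9 to 27.4) to 56.3% (53.7 to 58.9). The blastema summit lay inside the activated peak at 62.0% of sites in the lowest decile and 99.1% in the highest. Activated pileup had a median of 9 fragments in the lowest decile and 25 in the highest. How far the number of fragments at a summit alone sets the distance was not tested. Summits were also farther apart in broader blastema peaks, with a median of 55 bases (50 to 61) in those of 200 to 399 bases and 107.5 bases (94 to 120) in those of 1500 bases or more, although the activated peaks in the broad ones were the stronger, with a median −log10 q of 6.83 against 4.26. The widths of overlapping peaks limit the summit distance, so a rise with width is partly set in advance.

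At the 5 one-to-one sites with the highest activated −log10 q, both lists placed the peak alike, with blastema widths of 509 to 1172 bases and activated widths of 435 to 1105 bases. On 4p segment 0 the activated peak ran from 29916775 to 29917879 with a pileup of 194 and the blastema peak from 29916725 to 29917896 with a pileup of 319, and their summits were on the same base. On 6q segment 1 the activated peak from 307645168 to 307645960 had a pileup of 203 and the blastema peak 337, with summits 11 bases apart. On 1p segment 0, from 201860360 to 201860901, the pileups were 132 and 207 and the summits 1 base apart. On 3p segment 1, from 367585308 to 367585742, they were 127 and 245, with summits 27 bases apart. On 12q segment 0, from 205510080 to 205510861, they were 154 and 258, with summits 115 bases apart. An intact peak overlapped all 5, against 75.9% of all activated peaks. It also overlapped all 139 activated peaks with a pileup of 50 or more, so this is not particular to the 5.

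The 5 one-to-one sites with the largest summit distance had an activated peak of low −log10 q, 2.53 to 4.52, that overlapped a broad blastema peak. The largest was 1687 bases, on 14q, where an activated peak of 200 bases from 292171730 to 292171929 with a pileup of 10 met a blastema peak of 1984 bases with a pileup of 57. The others were 445503024 to 445503286 on 1q segment 2 (1519 bases), 347318418 to 347318812 on 11q segment 2 (1456 bases), 218741721 to 218741920 on 7p segment 0 (1408 bases) and 357367894 to 357368131 on 3q segment 3 (1376 bases). Their activated pileups were between 10 and 18 and the blastema widths between 1940 and 2476 bases.

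Summit distances of the other pairs of lists, which share a list with this pair, are given beside it. The median was 76 bases between intact and blastema summits (74 to 79, 20943 sites) and 76 bases between activated and intact summits (74 to 78, 12150 sites). At the 11047 sites with 1 peak in each list, the activated summit was nearer to the blastema summit at 5607 sites, or 50.8% (49.8 to 51.7). It was nearer to the intact summit at 5269, and equally near at 171. All 3 summits were within 50 bases of each other at 19.7% of these sites. The activated summit was the one more than 50 bases from both others, with those within 50 bases of each other, at 17.5% (16.7 to 18.2). This held for the intact summit at 16.5% (15.8 to 17.2) and for the blastema summit at 14.5% (13.8 to 15.2). The medians at these sites were 69 bases from activated to blastema (66 to 71), 76 from activated to intact (74 to 78) and 67 from intact to blastema (65 to 69), so the distance between the limb lists, the shallower ones, was the longest. Whether depth sets this order was not tested.

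**Figure D3:**
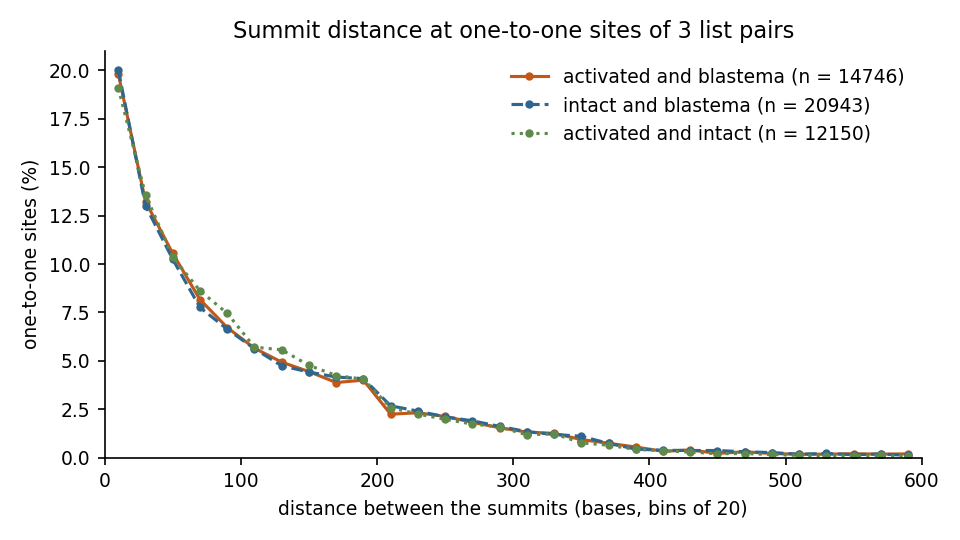
Percent of one-to-one sites in 20-base bins of summit distance, in bases, for activated and blastema (14746 sites), intact and blastema (20943) and activated and intact (12150). The 3 curves run close together, start near 20% in the first bin and step down at 200 bases.

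The distances did not fall off smoothly. For activated and blastema, 591 sites lay at 180 to 199 bases and 332 at 200 to 219 bases, followed by 343 at 220 to 239. The same step stood in the other pairs, from 856 to 562 sites for intact and blastema and from 493 to 314 for activated and intact. In all lists 200 bases was also the smallest peak width, held by 12.8% of activated and 9.15% of blastema peaks. The part of that minimum in the step was not tested.

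The height of a shared site in one list went with its height in the other. Pileup could be recovered in both lists at 14721 of the one-to-one sites, and it had medians of 15 fragments in activated limb and 55 in blastema. The Spearman rho was 0.74 over these sites. As a description it shares 1 pair of lists and the local background among its points. Blastema pileup was a median of 3.52 times the activated pileup (3.50 to 3.54), with 90% of sites between 1.95 and 5.40 times, while the lowest backgrounds differed 6.65 times. The fold of pileup over background had the other order. Its median was 5.75 in the 16238 activated peaks that met 1 blastema peak. In the 14794 blastema peaks with 1 activated peak it was 4.64. Peaks without a match had the same order of fold, with medians of 5.23 in activated and 3.56 in blastema peaks. Pileup is not corrected for depth, so it does not show which tissue is more open. Fold depends on the background of its own list, so it does not show this either. The pileup ratio had a median of 3.80 where the activated pileup was under 12 and 2.17 where it was 64 or more. Activated pileup is the denominator of this ratio and also sorted the sites. Counting error alone can give such a fall, so nothing is concluded from it. A single site had more fragments in the shallower activated list than in blastema.

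**Figure D4:**
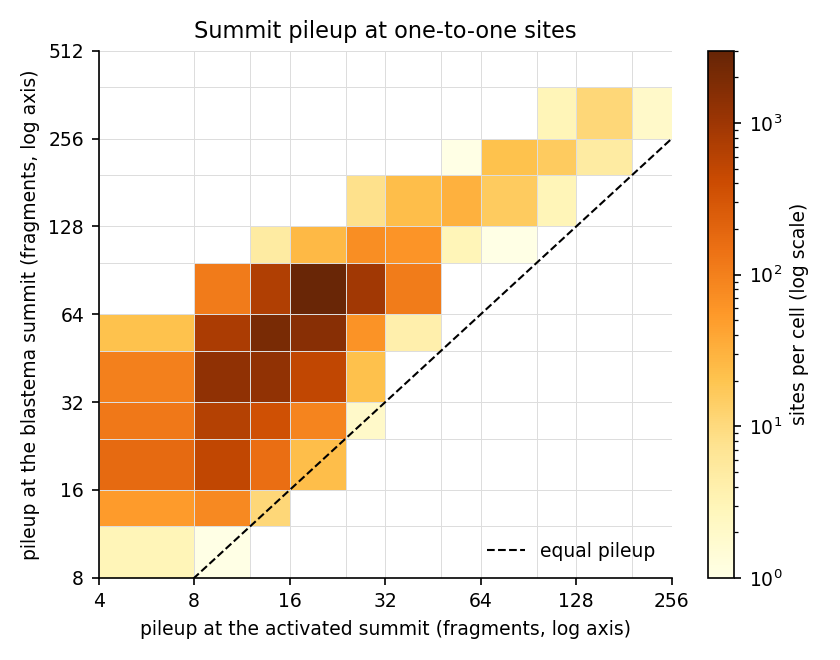
Pileup at the activated summit against pileup at the blastema summit, in fragments on log axes, at 14721 one-to-one sites; colour gives the number of sites per cell on a log scale and the dashed line marks equal pileup. Almost all sites lie above the line, and the band of cells climbs with both pileups.

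A small set of activated peaks had no blastema counterpart, and these were weak and narrow. They numbered 1062, or 6.13% of the activated list (5.78 to 6.50). Their median width was 205 bases against 341 for activated peaks with a blastema overlap, and their median summit pileup was 8 against 15. The minimum width of 200 bases was held by 508 of them, or 47.8%, against 10.5% of the others. Their highest pileup was 26. An intact peak overlapped 119 of the 1062, or 11.2% (9.37 to 13.3), against 80.2% (79.5 to 80.8) of activated peaks with a blastema overlap.

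A blastema peak stood within 1000 bases of 145 of the unmatched activated peaks, or 13.7% (11.6 to 15.9), and within 100 bases of 41. The share within 1000 bases depended on what counted as matched. It was 29.3% where 50% of the activated peak had to be covered, and 92.4% where 50% of each peak had to be. It was 5.94% among peaks with a −log10 q of at least 5 in both lists, and 1.31% with the blastema list cut to the length of the activated list. The median gap to the nearest blastema peak was 44045 bases (38270 to 50023), 31 had it more than 1000000 bases away, and 13 lay on sequences with no blastema peak. The farthest on named arms, 287482266 to 287482498 on 5p segment 2, was 9833667 bases from any blastema peak. The second, 190329793 to 190329995 on 7q segment 0, was 5011598 bases from one. Then came 2710527 to 2710726 on 6q segment 1 (4936738 bases), 325969689 to 325969888 on 4q segment 0 (3977016 bases) and 18619219 to 18619471 on 5q segment 1 (3106988 bases). Each of these 5 had 6 to 8 fragments at the summit and no intact overlap. In the other direction, blastema peaks with no activated overlap had a median gap of 357161 bases to the nearest activated peak, and 1.46% of them (1.41 to 1.53) had one within 1000 bases.

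The 5 broadest activated peaks each lay inside a single, broader blastema peak. The widest, on 12q segment 0 from 210820612 to 210823843, spanned 3232 bases and filled most of a blastema peak of 3306 bases, with summits 62 bases apart. The next, on 5q segment 0 from 57768768 to 57771244, spanned 2477 bases inside the widest peak of the blastema list, 4704 bases, with summits 3579 bases apart. That blastema peak held 2 activated peaks, and the distance is that of the farther of their summits. Those that followed, 259877564 to 259880018 on 3p segment 1 and 212181784 to 212183841 on 12q segment 0, had summits 166 and 564 bases from those of blastema. The last, on 1q segment 0 from 273839423 to 273841317, had summits 14 bases apart.

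The shares of overlap were also taken by chromosome arm. The share of activated peaks overlapped ran from 91.1% on 2p (88.8 to 93.0) to 96.6% on 13p (93.6 to 98.4), and the interval held the 93.9% of the whole list on 25 of 28 arms. The exceptions were 2p and 4q, below it, and 13q, above it. The share of blastema peaks overlapped ran from 7.68% on 5p (7.01 to 8.39) to 12.4% on 13p (10.9 to 13.9), and its interval lay above the 9.23% of the whole list on 11 arms and below it on 8. Arms held more blastema than activated peaks, 1491 against 179 on 12p, so the counts of arms for these shares cannot be compared. The number of blastema peaks per activated peak was 11.5 on 5p, 7.48 on 13p and 7.28 on 14p. The median summit distance was between 54 bases, on 14p, and 89.5 bases, on 5p, and the interval held 75 bases on 26 of 28 arms. The width ratio was between 1.91 on 14p and 2.49 on 9q.

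**Figure D5:**
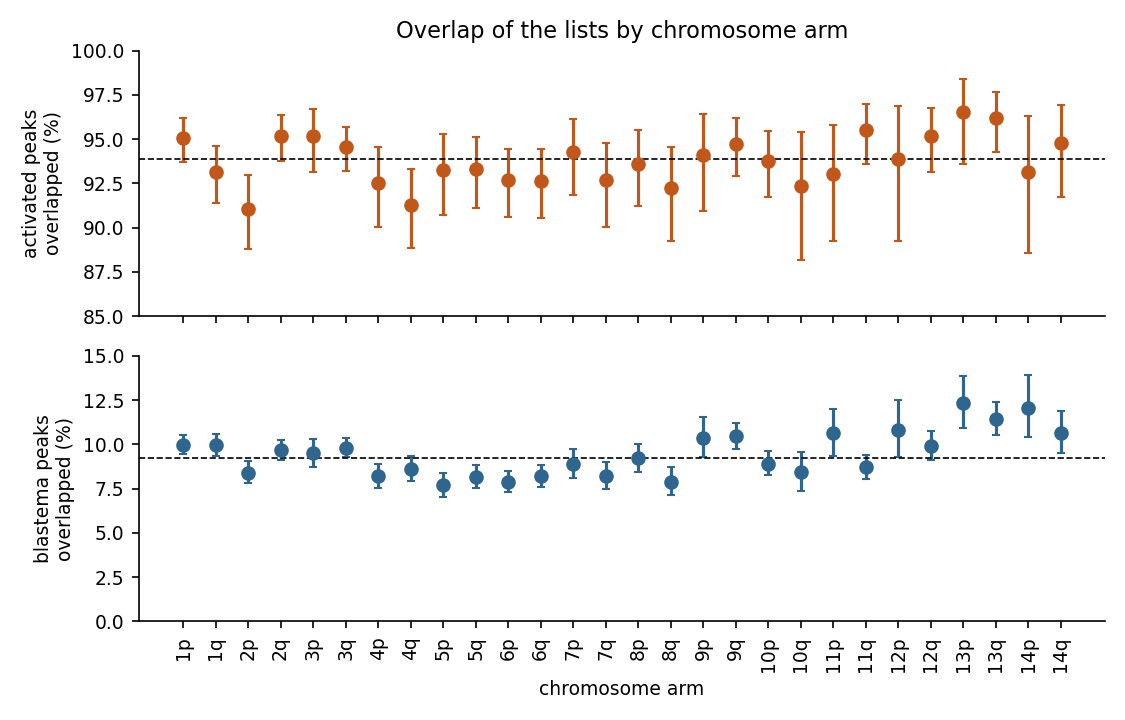
Percent of activated peaks overlapped by a blastema peak (upper plot, axis from 85%) and percent of blastema peaks overlapped by an activated peak (lower plot), for 28 chromosome arms; error bars are exact 95% intervals and dashed lines mark the whole lists, 93.9% and 9.23%. The upper values run from 91.1% to 96.6%, and the lower values are highest on 13p, 14p and 13q.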

How the data were processed

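Sorted limb cells of 7 samples were profiled by ATAC-seq. The submitters' processing notes name Bowtie2 2.3.2 and, without a version, MACS2; the build is not named in them. No source used here says whether reads were shifted for Tn5 or a control was used. The authors deposited 1 list per group, per the labels, so samples have no values of their own. Depth per sample is unknown.

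Each peak has a position, a summit and 4 values. The score the authors deposited was not used. The ratio that the authors deposited is the fold of summit pileup over background, read here with a constant added to each. The −log10 p and −log10 q deposited by the authors are those of the summit, with q adjusted within a list. The −log10 q ranked or filtered peaks within a list only, and fold and −log10 p also gave the pileup.

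Overlap meant at least 1 shared base. Width was end minus start, and the summit was the start plus the deposited offset. A one-to-one site has peaks that overlap exactly 1 peak of the other list. Fold was read as pileup plus 1 over background plus 1, so it is not their plain ratio. Pileup and background were solved from fold and −log10 p as whole fragments within 0.001, which succeeded for 99.8% of activated and 100% of blastema peaks. Positions are 1-based within the segments that the files name. No column belonged to a sample outside the study. The code (Python 3.11.15, numpy 2.4.6, pandas 2.3.3, scipy 1.17.1) was tested on simulated lists. Named peaks are, on named arms, the first 5 by number of overlaps in either direction, −log10 q, summit distance, gap and width. The comparison and rules were chosen with earlier results of these data known. Exact intervals treat peaks as independent, which neighbours are not.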

Additional observations from a re-analysis of the deposited data

How the results depend on the processing

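Of 58 recomputed values over 8 results and 12 settings, 20 stayed within the 95% interval of the value reported. All those restricted to named arms did. Requiring 50% of the activated peak to be covered gave 92.5% of activated and 9.07% of blastema peaks shared, 90.8% wholly inside and 29.3% of unmatched peaks within 1000 bases, since partial overlaps then count as unmatched. Requiring 50% of each peak gave 30.7%, 3.16%, 82.9% and 92.4% for these, no blastema peak with 2 or more (0), a median distance of 65 bases, 42.5% within 50 bases and a width ratio of 1.58. That rule keeps only pairs of like width, and under it a blastema peak with 2 or more is impossible. With the blastema list at the length of the activated list, 66.9% and 63.1% were shared, 6.003% of overlapped blastema peaks held 2 or more, 96.0% lay wholly inside, the distance was 66 bases, 42.7% were within 50 bases, the ratio was 2.32 and 1.31% of unmatched peaks were within 1000 bases. With a −log10 q of at least 5 in both lists these were 96.8%, 14.1%, 2.05%, 94.1%, 61 bases, 45.0%, 2.18 and 5.94%. Merging peaks at most 150 bases apart gave 9.38% of blastema peaks shared and 3.05% with 2 or more, fewer because close neighbours became 1 peak. All overlapping pairs gave 82 bases, 37.3% and a ratio of 2.42, and the strongest activated peak of each blastema peak gave a ratio of 2.35. Other limits gave 24.1% within 25 and 58.7% within 100 bases, and 11.4% of unmatched peaks within 500 and 18.3% within 5000 bases. The width ratio was above 1 in the 8 settings in which it was recomputed, and the other width comparisons were not recomputed. No paired analysis was possible because each group has 1 list, and for the same reason no replicate could be left out. The lowest summit pileup of a one-to-one activated peak was 5 fragments, and what depth limits was not tested.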

Other observations

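A small class of activated peaks had a very high pileup, and its limit of 50 fragments was set after the values were seen. It held 139 peaks, while 37 activated peaks had 40 to 49 fragments and 319 had 30 to 39. A blastema peak and an intact peak overlapped all 139, against 93.9% and 75.9% of all activated peaks. The blastema share was also 100% at 30 to 39 and at 40 to 49 fragments, so it is not particular to the class. At the 111 one-to-one sites among them the summits lay a median of 12 bases apart (10 to 19), against 76 bases (74 to 78) at 14610 sites of lower pileup. How far the number of fragments at a summit alone sets this distance was not tested. The width ratio was 1.20 (1.17 to 1.25) against 2.31, and the blastema pileup was 2.43 times the activated pileup (2.28 to 2.51) against 3.53 times. Activated pileup both chose the class and is the denominator of the pileup ratio, so nothing is concluded from that contrast. Peaks of the class were also gathered: 78 of them, or 56.1%, had another of the class within 10000 bases, while 12.7% of the lower activated peaks had another lower one within that distance. They lay on 18 of the 28 arms, with 16 on 5q and 14 each on 3p and 7q. The fullest runs held 5 peaks each, in 7878 bases on 3p segment 1 from 259786069 to 259793946 and in 12273 bases on 5q segment 0 from 58675276 to 58687548. Pileup is not corrected for local background, and fold varied within the class. It was 2.77 at 112 fragments for the peak from 57768768 on 5q segment 0, and 19.4 at 194 fragments for that from 29916775 on 4p segment 0. The part of local background in the class was not tested.

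Sites where the activated limb stood highest against blastema were also looked up after the values were seen. The first was on 3p segment 1, where the activated peak from 320378763 to 320379049 had 14 fragments at its summit and the blastema peak from 320378940 to 320379139 had 12. Then came 246494821 to 246495150 on 8q segment 0, with 16 and 17 fragments, and 176221294 to 176221761 on 10q segment 0, also with 16 and 17. No intact peak overlapped these 3, while one overlapped 75.9% of all activated peaks. The 3 were picked as extremes of the pileup ratio, so nothing is concluded from their lack of intact overlap. Since the blastema list is the deeper one, equal counts are a low value for blastema, but counts of this size carry wide counting error and no replicate stands behind them.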
